A study of Homo sapiens with 4 samples.

Results

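The gene families that build and steer the spliceosome were followed over 4 arrays of LAPC4, a human cell line established from prostate cancer. Members were all genes of the array whose symbol begins with SRSF, HNRNP, SNRP, SF3A, SF3B, U2AF or LSM followed by a letter or number, which gave 60 of the 11963 genes with a probe set of their own. These comprised 9 SRSF, 19 HNRNP, 11 SNRP, 8 SF3A or SF3B, 2 U2AF and 11 LSM genes. Of the 60, 59 passed the filter on low values, a signal of 20 on any array. The exception was HNRNPA3P1, a pseudogene. Each gene is given by its brightest probe set, and its other probe sets are described as a check. Another 19 probe sets name a member together with other genes and were left out, so that SRSF2, SRSF9, HNRNPH2 and SNRPN were not analysed here. The rule itself uses symbols and no measured value, but the families were chosen with earlier results of these data known.

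Introns are removed from pre-mRNA by the spliceosome, a machine of small nuclear RNAs and proteins that assembles anew on each intron. SNRP genes encode the Sm ring and other proteins of the small nuclear ribonucleoproteins (snRNPs), LSM genes the related ring of the U6 snRNP, and U2AF, SF3A and SF3B the proteins that mark the end of the intron and seat the U2 snRNP on the branch point. SR proteins (SRSF) mostly promote the use of exons by binding enhancers within them, whereas hnRNP proteins (HNRNP) coat nuclear RNA and often act against them. In prostate cells the same machinery produces the variants of the androgen receptor that lack the ligand-binding domain.

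The 4 conditions were β-TrCP shRNA in charcoal stripped serum (shRNA CSS), β-TrCP shRNA in fetal calf serum (shRNA FCS), control vector in charcoal stripped serum (control CSS) and control vector in fetal calf serum (control FCS), with 1 array each after 72 hours. The FCS medium held 10% serum with 100 pM methyltrienolone, a synthetic androgen. The CSS medium held 10% of a serum that is depleted of androgens, without that supplement. The lentiviral shRNA was directed at both β-TrCP genes, BTRC and FBXW11, which encode the substrate-binding subunits of an SCF ubiquitin ligase. The labels name a GFP vector as control, the study's Methods a vector with eGFP alone, and its Results the uninduced shRNA vector, so that changes with the shRNA can include those of doxycycline or of the vector. CSS differs from FCS in the added androgen and in everything else that charcoal removes.

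With 1 array per condition, no difference between 2 conditions had a replicate check, and no such difference has a p-value. FBXW11 had normalized log2 signals of 4.68 on the shRNA CSS array and 5.02 on the shRNA FCS array, against 8.19 on the control CSS array and 8.02 on the control FCS array. BTRC was dim, at the floor of 4.32 on both shRNA arrays, against 4.64 on the control CSS and 4.50 on the control FCS array. Of 12 markers of prostate luminal epithelium 9 were measured, with KRT18 between 11.21 and 11.60 on the log2 scale. By contrast, 5 of 8 fibroblast markers and 4 of 8 leukocyte markers were measured, none above the 5.97 of CD79A on the shRNA CSS array. KLK3, the gene of prostate-specific antigen and a classical target induced by androgen, did not have its higher signals in the medium with androgen: it was at 8.37 on the shRNA CSS and 8.02 on the shRNA FCS array, and at 9.74 on the control CSS and 9.0 on the control FCS array. TMPRSS2, another such target, was at 7.52 on the shRNA CSS and 7.66 on the shRNA FCS array, and at 7.73 on the control CSS and 8.22 on the control FCS array. KLK2, which the study names among prostate specific genes, was at 6.59 on the shRNA CSS and 7.07 on the shRNA FCS array. On the control CSS array it was at 9.0 and on the control FCS array at 8.3, so that in control cells it was higher in CSS, as KLK3 was. The serum of each array was taken from the labels, on which every serum difference below rests.

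The shRNA CSS array stood apart from the other 3. Its Pearson correlation with them over all probe sets was 0.934 to 0.936, against 0.979 to 0.989 among the others, and its deposited values had an interquartile range of 2.07 on the log2 scale, against 2.69 to 2.75. Summed linear signals of the fibroblast markers were 178 on the shRNA CSS, 115 on the shRNA FCS, 113 on the control CSS and 118 on the control FCS array, and those of the leukocyte markers were 134, 86.1, 86.8 and 86.1 in the same order, so that both were highest on the array that stood apart. These sums lie near the floor, since each gene at the floor adds 20. Above it were 5 of 5 measured fibroblast markers on the shRNA CSS array and 2 on each other array. Of 4 measured leukocyte markers, 2 were above it on the shRNA CSS array and 1 on each other array. The control CSS array differed in another measure. Its 3′ probe set of ACTB, a mark of RNA integrity, exceeded the 5′ one by 1.03 on the log2 scale, against 0.443 on the shRNA CSS, 0.409 on the shRNA FCS and 0.446 on the control FCS array. For GAPDH the same difference was smaller, at 0.18 on the control CSS array, against 0.032 on the shRNA CSS, -0.011 on the shRNA FCS and -0.005 on the control FCS array. The part of these differences in the results below was not tested. The local spread given beside a change is a robust SD (the scaled median absolute deviation) of log2 changes over the 1000 probe sets most alike in mean signal, and describes how far such probe sets differed between the same 2 arrays.

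Some genes are shown by the 250 bases before their start. SRSF6, SRSF7 and SRSF5 had the largest decreases of the SR family with CSS in control cells, by their brightest probe sets. Other probe sets of SRSF6 and SRSF7 disagreed, and SRSF5 did not change with CSS in shRNA cells, as given below. SNRPA1 was the SNRP gene with the largest change. RefSeq promoters (GRCh38.p14) were listed for 53 of the 59 measured members, with 75 starts. The windows shown are those of SRSF6 (chr20:43457646-43457895, plus strand), SRSF7 (chr2:38751495-38751744, minus strand, the more upstream of 2 listed starts), SRSF5 (chr14:69766892-69767141, plus strand) and SNRPA1 (chr15:101295249-101295498, minus strand). All lie upstream of the listed start and are read 5′ to 3′ toward it, and capitals mark matches on either strand to the motifs named after them.
SRSF6: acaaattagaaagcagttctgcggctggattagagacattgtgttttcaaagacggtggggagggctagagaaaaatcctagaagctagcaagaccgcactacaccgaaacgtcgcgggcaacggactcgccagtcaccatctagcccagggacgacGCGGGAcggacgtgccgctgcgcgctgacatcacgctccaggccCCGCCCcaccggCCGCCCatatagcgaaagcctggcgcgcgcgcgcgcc
SRSF7: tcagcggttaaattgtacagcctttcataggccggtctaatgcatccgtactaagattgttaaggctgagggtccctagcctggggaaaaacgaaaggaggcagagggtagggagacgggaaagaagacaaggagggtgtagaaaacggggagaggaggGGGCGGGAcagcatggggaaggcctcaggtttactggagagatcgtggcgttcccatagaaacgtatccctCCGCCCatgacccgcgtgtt
SRSF5: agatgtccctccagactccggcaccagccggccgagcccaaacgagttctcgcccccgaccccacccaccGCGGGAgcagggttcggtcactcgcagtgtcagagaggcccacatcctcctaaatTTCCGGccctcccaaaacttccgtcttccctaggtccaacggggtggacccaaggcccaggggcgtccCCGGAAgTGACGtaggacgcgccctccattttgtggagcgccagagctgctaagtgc
SNRPA1: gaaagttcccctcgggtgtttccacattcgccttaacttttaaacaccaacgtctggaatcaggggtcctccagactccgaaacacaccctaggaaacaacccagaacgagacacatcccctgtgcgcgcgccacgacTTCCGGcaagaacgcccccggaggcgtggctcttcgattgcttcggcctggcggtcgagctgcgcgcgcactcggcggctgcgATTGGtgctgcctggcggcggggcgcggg

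The motifs named here were searched on both strands of all windows. The core of E2F sites, spelled GCGGGA, was found at 58.3% of 12 SRSF starts, 57.1% of 28 HNRNP starts and 40% of 15 SNRP starts, against 23.5% of all 35116 listed starts. The GC box, spelled GGGCGG, can overlap it, as it does in the SRSF7 window, and was found at 67.9% of HNRNP starts and 26.7% of SNRP starts, against 42.6% of all. The core of ETS sites, spelled CCGGAA, was found at 66.7% of the SNRP starts and at 16.7% of the SRSF starts, against 14.5% of all. The box spelled CCAAT was found at 57.1% of HNRNP starts, against 32% of all. A half-site of the cAMP response element, spelled TGACG, was found at 50% of the SRSF starts, against 21.2% of all. The core of NRF1 sites, spelled GCATGCGC, was found at 8% of members' starts, against 2.63% of all. A half-site of the androgen response element, spelled TGTTCT, was found at 33.3% of the SRSF starts and 12% of all members' starts, against 12.4% of all listed starts, and in none of the 4 windows shown. All listed starts are those of 27305 genes, which were not matched to the members in signal or base composition. Starts of 1 gene can overlap, and a match of letters is a description and not a site.

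Across the families, no brightest probe set differed by 2-fold in any of the 5 comparisons of 2 arrays. With the combined treatment (shRNA CSS against control FCS), 0 of 59 members reached 2-fold upward and 0 downward, against 7.98% and 6.9% of all genes. The same counts of 0 stood against 0.802% and 0.401% of all genes for the shRNA in FCS, 0.163% and 0.138% for CSS in control cells, 7.75% and 6.75% for the shRNA in CSS, and 7.92% and 6.64% for CSS in shRNA cells, higher first in each pair. All genes include many dim ones. Of the 1069 genes whose mean signal lay within the interquartile range of that of the members, 18 were higher and 9 lower by 2-fold with the combined treatment, and 56 were higher and 74 lower by 1.5-fold. At 1.5-fold, 4 members were lower and 0 higher with the combined treatment, against 16.3% and 18.2% of all genes. The 4 were SNRPA1, SF3A3, HNRNPA3 and LSM6, all of them dimmer than most members. In FCS, the shRNA gave 1 member 1.5-fold lower, SNRPA1, and 0 higher, against 3.36% and 3.22% of all genes, and in control cells CSS gave 2 lower, HNRNPH1 and SRSF6, and 0 higher, against 2.23% and 2.47%. CSS in shRNA cells gave 3 lower, SRSF6, SRSF7 and LSM6, and 0 higher, against 16% and 17.5% of all genes. The shRNA in CSS gave 1 higher, HNRNPH1, and 1 lower, HNRNPA3, against 16.7% and 16.4%.

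**Figure D1:**
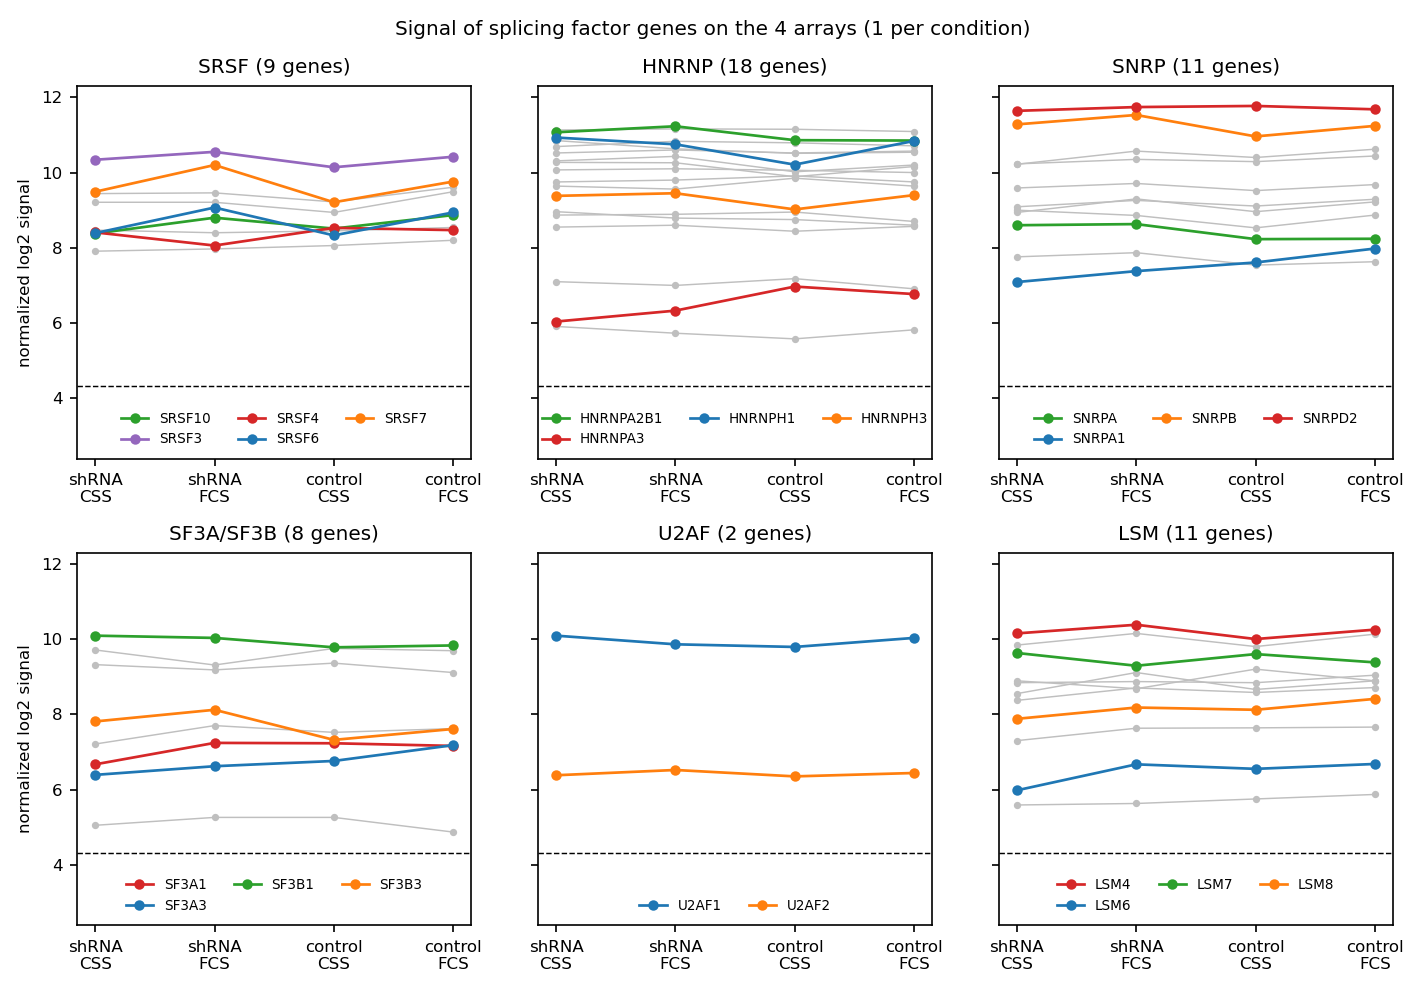
Normalized log2 signal (vertical axis) of 59 splicing factor genes on the 4 arrays (horizontal axis, 1 array per condition), by family. Each line is a gene's brightest probe set, named genes are coloured, and the dashed line is the floor of 4.32. SRSF6 and SRSF7 are lower on both CSS arrays than on both FCS arrays, and HNRNPH1 is lowest on the control CSS array.

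Differences in direction were more uneven than the folds. In control cells, CSS gave 41 members lower and 18 higher, against 46.7% and 53.3% of all genes with a fold, and the median change of members was -0.13 against 0.02 for all genes. Of the 59 members, 16 were lower by more than the local spread (16.4% of all genes) and 1 was higher (19.9%). In shRNA cells, CSS gave 42 members lower and 16 higher (47.8% and 52.1% of all genes), with a median of -0.11 against 0.03. There, 12 members were lower beyond the local spread (15% of all genes) and 3 higher (21.9%). With the combined treatment 36 members were lower and 22 higher (47.4% and 52.5% of all genes), and with the shRNA in CSS 30 were lower and 28 higher (49.3% and 50.5%). The shRNA left the families more evenly split, with 33 higher and 26 lower in FCS (49.9% of all genes in either direction) and medians of 0.04 for members and 0.00 for all genes.

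**Figure D2:**
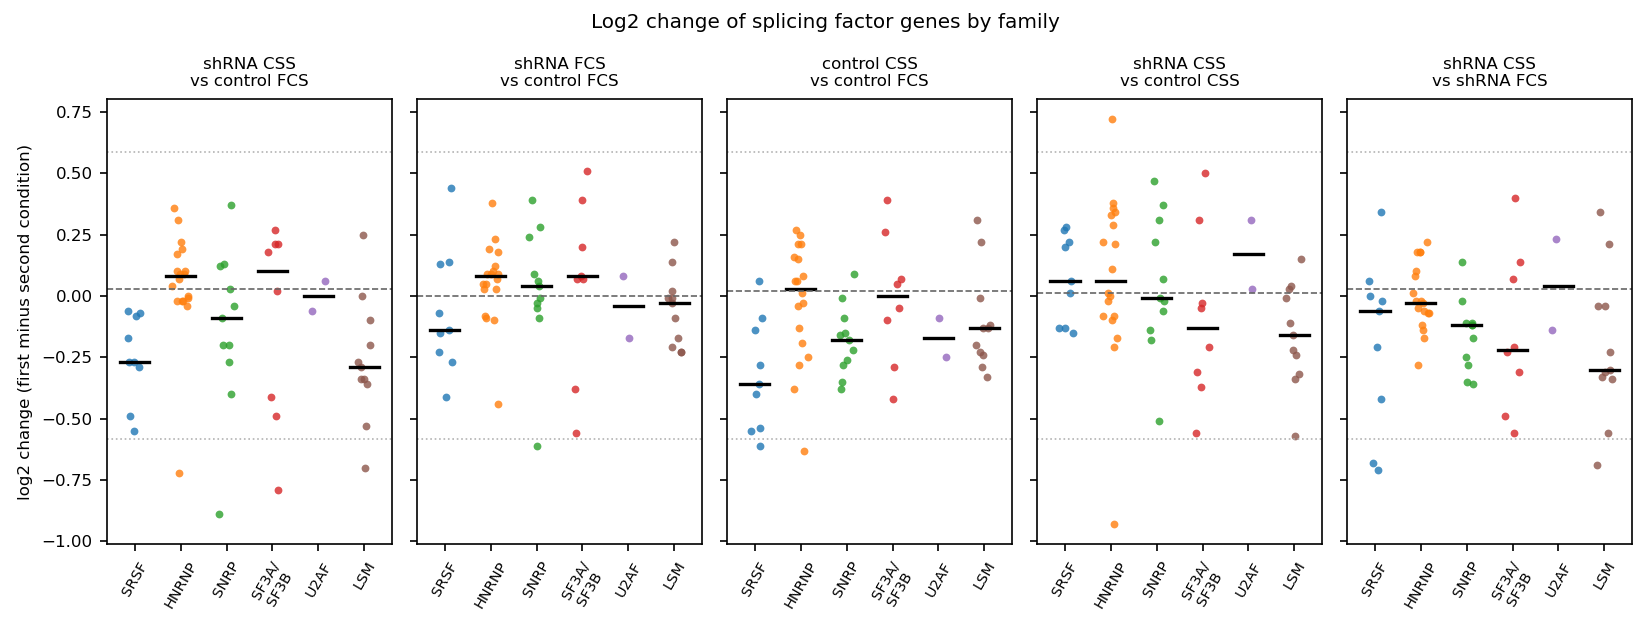
Log2 change (vertical axis, first minus second condition of each panel title) of each member by family, with the family median as a black bar, the median of all genes as a dashed line and 1.5-fold as dotted lines. The SRSF median is -0.27 for shRNA CSS against control FCS and -0.36 for control CSS against control FCS, while HNRNP medians are 0.08 and 0.03.

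The SR genes were lower in CSS in control cells, nearly without exception. Of 9 measured SRSF genes 8 were lower there, 6 of them beyond the local spread (16.4% of all genes), with a median of -0.36. In shRNA cells 6 were lower and 2 higher in CSS, with a median of only -0.06. There, 4 were lower beyond the local spread (15% of all genes). All 9 were lower with the combined treatment (median -0.27, range -0.55 to -0.06), but only 2 of them beyond the local spread (14.5% of all genes). SRSF6, which acts on exonic enhancers, had signals of 8.39 on the shRNA CSS and 9.07 on the shRNA FCS array, against 8.33 on the control CSS and 8.94 on the control FCS array. Both CSS arrays were therefore below both FCS arrays, by 0.68 with the shRNA and 0.61 without it, and beyond a local spread of 0.32 in control cells. SRSF7, which also serves in the export of mRNA, followed the same order, with 9.49 and 10.20 on the shRNA CSS and shRNA FCS arrays and 9.21 and 9.76 on the control CSS and control FCS arrays. It was 1.64-fold lower in CSS with the shRNA and 1.46-fold lower in CSS without it, and on each serum its shRNA array was the higher one.

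SRSF10, a regulator that becomes a general splicing repressor when dephosphorylated, was at 8.38 on the shRNA CSS, 8.80 on the shRNA FCS, 8.51 on the control CSS and 8.87 on the control FCS array, again with both CSS arrays below both FCS arrays. SRSF3, the brightest of the family and one of its smallest proteins, was at 10.34, 10.55, 10.14 and 10.42 on these arrays, and its serum changes were -0.21 with the shRNA and -0.28 without it. In other members the serum change was found in control cells. SRSF5 was at 9.21 on both shRNA arrays, against 8.94 on the control CSS and 9.49 on the control FCS array. SRSF1, among the first SR proteins found and a known oncoprotein, was at 9.44 and 9.46 on the shRNA CSS and shRNA FCS arrays, against 9.22 on the control CSS and 9.61 on the control FCS array. For SRSF5 and SRSF1 the serum change was thus -0.54 and -0.40 in control cells, whereas it was 0.00 and -0.02 in shRNA cells. The difference between the vectors was not tested. SRSF4 ran the other way, lowest on the shRNA FCS array at 8.06, against 8.41 on the shRNA CSS, 8.53 on the control CSS and 8.47 on the control FCS array. SRSF8 was lower with the combined treatment by 0.29 on the log2 scale and SRSF11 by 0.07, both within the local spread.

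The other probe sets of the SR genes mostly had the same sign. Of 24 measured SRSF probe sets, 20 were lower with CSS in control cells, 18 were lower with CSS in shRNA cells and 23 were lower with the combined treatment. SRSF10 had 4 probe sets, with changes of -0.36, -0.72, -0.61 and -0.18 in control cells, and SRSF3 had 3, with -0.28, -0.75 and -0.29. SRSF1 had 4 that were all lower, but between -0.13 and -1.11. SRSF6 did not share this. Its dimmer probe set was at 8.55 on the shRNA CSS and 8.24 on the shRNA FCS array, against 8.76 on the control CSS and 8.38 on the control FCS array, so that CSS went with a higher signal in both vectors and the mean over both probe sets was -0.11 in control cells. SRSF7 was mixed as well, its 2 dimmer probe sets changing by 0.11 and -0.52 with CSS in control cells and by -0.93 and -0.21 in shRNA cells. Which transcripts of SRSF6 and SRSF7 these probe sets detect was not tested.

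**Figure D3:**
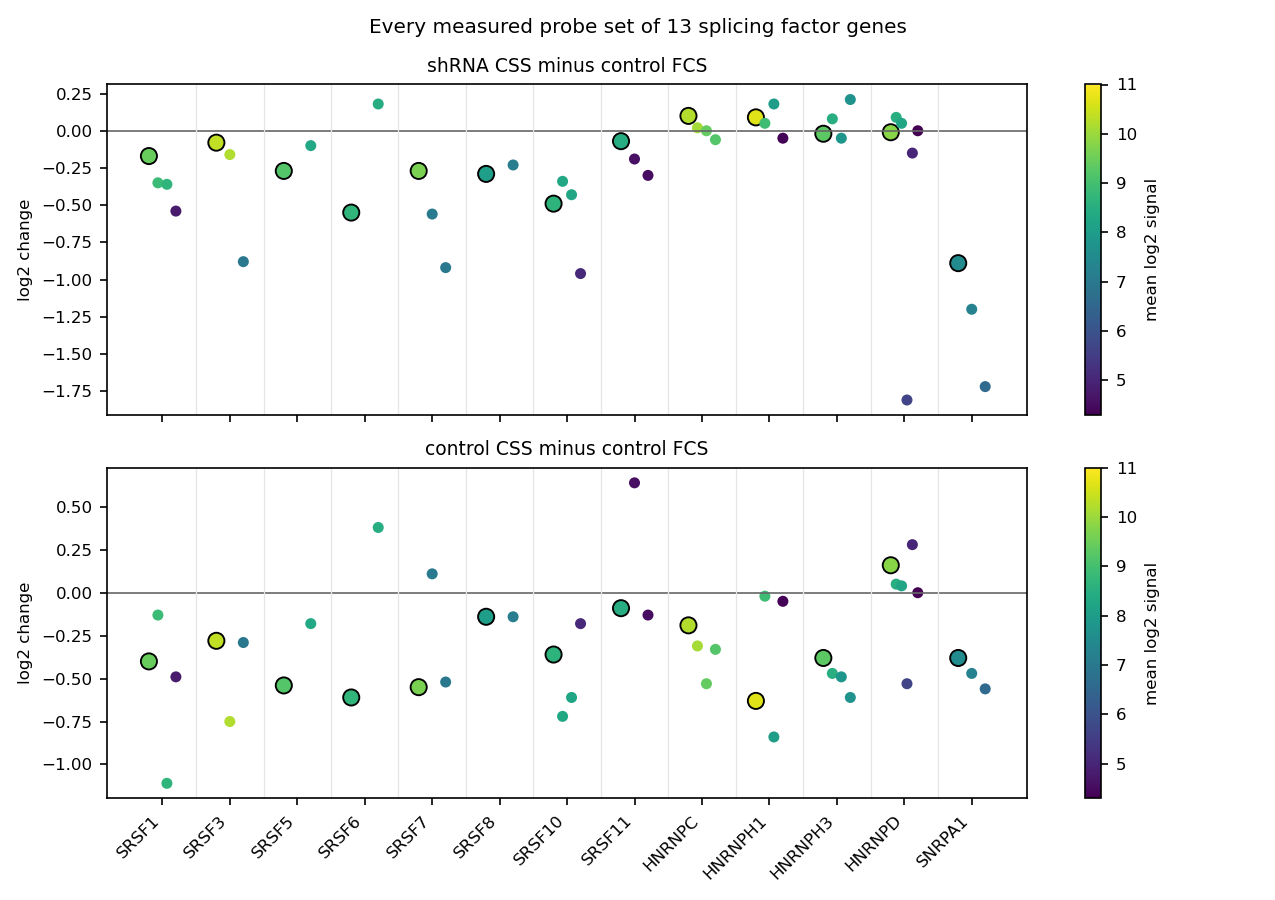
Log2 change (vertical axis) of every measured probe set of 13 genes (horizontal axis), for shRNA CSS minus control FCS above and control CSS minus control FCS below. Colour gives the mean log2 signal and a black ring marks the brightest probe set. SRSF10 and HNRNPH3 probe sets share the sign in the lower panel, while those of SRSF6 lie on opposite sides of 0 in both.

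The hnRNP genes, most of them bright, were divided by subfamily. As a family of 18 measured genes they had medians of 0.08 with the combined treatment, 0.08 with the shRNA in FCS and 0.03 with CSS in control cells, where 10 were higher and 8 lower. HNRNPH1, whose protein binds runs of G, was low on 1 array only. It was at 10.93 on the shRNA CSS and 10.75 on the shRNA FCS array, and at 10.21 on the control CSS against 10.84 on the control FCS array, which is 1.55-fold lower in CSS without the shRNA. Its change in CSS with the shRNA was 0.18. HNRNPH3, of the same subfamily, was at 9.38 and 9.45 on the shRNA CSS and shRNA FCS arrays, against 9.02 on the control CSS and 9.40 on the control FCS array. All 4 of its probe sets were lower on the control CSS array than on the control FCS array, by 0.38 to 0.61. HNRNPF, the remaining member of this subfamily, changed by -0.13 there.

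HNRNPH1 itself had another probe set with the same shape, at 8.33, 8.20, 7.30 and 8.15 on the shRNA CSS, shRNA FCS, control CSS and control FCS arrays, and a further one that was flat, at 8.95, 8.91, 8.88 and 8.90. HNRNPM, another regulator of exon choice, had the same order of arrays, at 10.27 and 10.26 with the shRNA in CSS and FCS, against 9.89 in control CSS and 10.16 in control FCS. HNRNPC, which binds U-rich tracts, was lower by 0.19 with CSS in control cells in its brightest probe set, and by 0.31, 0.53 and 0.33 in the others. These genes were low on the array with the larger 3′ to 5′ difference of ACTB. That array also held the lowest signal of 5 of 9 SRSF, 5 of 11 SNRP and 2 of 11 LSM genes. Whether RNA integrity had a part in this was not tested.

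The A/B type of hnRNP, whose best known member HNRNPA1 opposes SR proteins at many exons, went the other way in control cells by brightest probe set. There, 7 of 7 genes were higher in CSS, by 0.01 to 0.25 on the log2 scale and all within the local spread. Dimmer probe sets went both ways beyond it. They were lower for HNRNPA1 (-0.53 and -0.37), HNRNPD (-0.53) and HNRNPDL (-0.53), and others were higher for HNRNPA3 (0.31), HNRNPD (0.28) and HNRNPDL (0.65). In shRNA cells 6 of the 7 were lower in CSS. HNRNPA2B1 was at 11.07 on the shRNA CSS and 11.23 on the shRNA FCS array, against 10.86 on the control CSS and 10.85 on the control FCS array, so that both shRNA arrays lay above both control arrays. HNRNPA3 had the opposite order, at 6.04 and 6.33 on the shRNA CSS and shRNA FCS arrays, against 6.97 and 6.77 on the control CSS and control FCS arrays. It was 1.90-fold lower with the shRNA in CSS and 1.36-fold lower with the shRNA in FCS, and its 3 probe sets were all lower with the combined treatment, by 0.57 to 1.02. HNRNPA0 was higher with the combined treatment by 0.36, within its local spread of 0.38, but its dimmer probe set changed by -0.49 and the mean over both by -0.06.

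HNRNPR was at 10.85 on the shRNA CSS and 10.63 on the shRNA FCS array, against 10.51 on the control CSS and 10.54 on the control FCS array, an increase of 0.31 with the combined treatment beyond a local spread of 0.21. Its other probe set, at 9.57, 9.91, 9.46 and 9.67 in the same order, had a combined change of -0.09. HNRNPK, a C-rich RNA binder and the brightest of the family, lay between 11.09 and 11.16 on all 4 arrays, and HNRNPAB lay between 10.69 and 10.83. Neither separated the conditions. HNRNPD, known as AUF1 for its part in the decay of AU-rich mRNAs, was between 9.75 and 9.91 in its brightest probe set, but a dim one was at 4.70 on the shRNA CSS and 5.43 on the shRNA FCS array, against 5.98 on the control CSS and 6.51 on the control FCS array. HNRNPDL had 1 probe set higher by 0.62 and another lower by 0.79 with the combined treatment. HNRNPU, a scaffold protein of the nucleus, changed by -0.04 in its brightest probe set with CSS in control cells and by -1.02 in its dimmest.

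Among the snRNP proteins, CSS went with lower signals in both vectors. Of 11 SNRP genes 10 were lower with CSS in control cells (median -0.18) and 10 in shRNA cells (median -0.12). Of these, 4 and 3 were lower beyond the local spread, against 16.4% and 15% of all genes. The Sm ring, the core shared by the U1, U2, U4 and U5 snRNPs, was lower for 6 of 7 genes in control cells and for 7 of 7 in shRNA cells, with medians of -0.18 and -0.17. SNRPB, which encodes the Sm proteins B and B′, was at 11.28 and 11.53 on the shRNA CSS and shRNA FCS arrays, against 10.96 and 11.24 on the control CSS and control FCS arrays. It was lower in CSS in either vector and higher with the shRNA in either serum. SNRPG was at 10.22 and 10.57 with the shRNA in CSS and FCS, against 10.40 and 10.62 in the control in CSS and FCS. SNRPD1 was at 8.94 and 9.30, against 8.96 and 9.22, so that both genes were lower in each CSS array than in each FCS array. SNRPD2, the brightest, lay between 11.64 and 11.77 on all arrays.

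SNRPA1, the U2 snRNP protein A′, had the largest decrease of all members with the combined treatment. Its signals were 7.09 on the shRNA CSS and 7.38 on the shRNA FCS array, against 7.61 on the control CSS and 7.98 on the control FCS array. Both treatments thus went with a lower signal and the array with both had the lowest, 1.86-fold under the control FCS array, at a change of -0.89 with a local spread of 0.49. All 3 of its probe sets had the same order of arrays, with combined changes of -0.89, -1.20 and -1.72. Its U2 partner SNRPB2 differed little, at 7.76 and 7.87 with the shRNA in CSS and FCS, against 7.54 and 7.63 in the control in CSS and FCS. Of the U1 proteins, SNRPA was at 8.60 and 8.63 on the shRNA CSS and shRNA FCS arrays, against 8.23 and 8.24 on the control CSS and control FCS arrays, above both control arrays whatever the serum. SNRPC was lowest on the control CSS array at 8.53, against 9.0 on the shRNA CSS, 8.86 on the shRNA FCS and 8.87 on the control FCS array.

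The SF3A and SF3B genes, which encode the U2 proteins at the branch point, had no common direction. SF3A3 was lower with each treatment, at 6.39 on the shRNA CSS and 6.62 on the shRNA FCS array, against 6.76 on the control CSS and 7.18 on the control FCS array, a combined change of -0.79 in its single probe set. SF3A1 was low on the shRNA CSS array alone, at 6.67, against 7.24 on the shRNA FCS, 7.23 on the control CSS and 7.16 on the control FCS array. Its second probe set did not share this, with a combined change of 0.11. SF3B1, the subunit that contacts the branch point and is mutated in several cancers, was at 10.09 and 10.03 on the shRNA CSS and shRNA FCS arrays, against 9.78 and 9.83 on the control CSS and control FCS arrays. SF3B3 was at 7.81 and 8.12, against 7.32 and 7.61, so that for both genes the shRNA arrays were the higher ones in either serum. SF3B2 was higher by 0.21 and SF3B4 lower by 0.41 with the combined treatment, each within the local spread.

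U2AF1, which reads the AG at the end of the intron, was at 10.09 and 9.86 on the shRNA CSS and shRNA FCS arrays, against 9.79 and 10.03 on the control CSS and control FCS arrays. U2AF2, which binds the polypyrimidine tract, lay between 6.35 and 6.52. U2AF1 was higher with the shRNA in CSS by 0.31, beyond a local spread of 0.23, and within the local spread in the other comparisons. U2AF2 stayed within it in all 5. A second probe set of U2AF2 was at 6.38 on the shRNA CSS array, against 4.88, 5.10 and 5.23 on the shRNA FCS, control CSS and control FCS arrays, a change that its brightest probe set did not have.

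The LSM genes were mostly lower in CSS in both vectors, and 7 of the 11 had their lowest signal on the array with both treatments. Of these 11, 9 were lower with CSS in control cells (median -0.13), 9 in shRNA cells (median -0.30) and 10 with the combined treatment (median -0.29), the last with 3 beyond the local spread, against 14.5% of all genes. The ring of LSM2 to LSM8, which binds the end of U6 RNA, had 6 of 7 genes lower in CSS in either vector, with medians of -0.23 in control cells and -0.31 in shRNA cells. LSM8, the subunit that makes the ring nuclear, was at 7.88 on the shRNA CSS and 8.18 on the shRNA FCS array, against 8.12 on the control CSS and 8.41 on the control FCS array. LSM3 was at 9.84 and 10.15, against 9.80 and 10.13, with both CSS arrays at least 0.31 below the FCS array of the same vector. LSM6 was low on the shRNA CSS array alone, at 5.98, against 6.67 on the shRNA FCS, 6.55 on the control CSS and 6.68 on the control FCS array. Its combined change of -0.70 was about the size of its local spread of 0.69. LSM2 shared the order, at 7.30, against 7.63, 7.64 and 7.66, but within the local spread (-0.36 against 0.48 with the combined treatment).

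LSM5 was at 8.55 and 9.11 on the shRNA CSS and shRNA FCS arrays, against 8.66 and 8.89 on the control CSS and control FCS arrays. The exception in the ring was LSM7, higher in CSS at 9.63 and 9.60 with and without the shRNA, against 9.29 and 9.38 in FCS. LSM1, which replaces LSM8 in the cytoplasmic ring of mRNA decay, lay between 8.84 and 9.04. LSM4, the brightest, changed by -0.10 with the combined treatment, while a dim probe set stood above the floor on the shRNA CSS array, at 5.69, where the other 3 arrays were at 4.32 to 4.39.

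The serum change could be set side by side in both vectors from 4 different arrays. It was below 0 in both vectors for 32 of 59 members (54.2%), against 27.2% of 6965 genes above the floor on all 4 arrays and 33.9% of the 1069 genes of like signal. It was above 0 in both for 8 members. Of the 32, 6 were SRSF, 9 SNRP, 9 LSM and 4 HNRNP genes. Across the 59 genes, which are not independent replicates and share the normalization of their arrays, the Pearson correlation of the serum change in the 2 vectors was 0.36, against 0.52 across the 1069 genes. It was 0.77 across the 9 SRSF genes, 0.53 across the 22 SNRP and LSM genes and -0.23 across the 18 HNRNP genes. The lowest of the 4 signals fell on the control CSS array for 23 members (39%) and on the shRNA CSS array for 22 (37.3%), against 20% and 35.9% of the 6965 genes and 24.6% and 23.5% of the 1069.

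**Figure D4:**
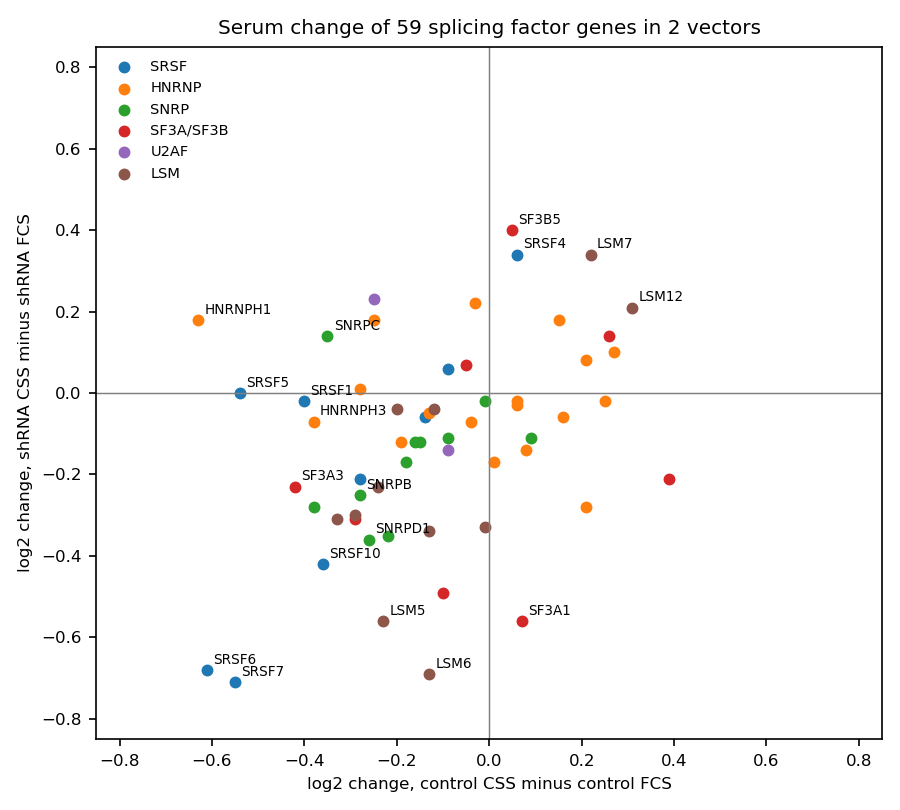
Log2 serum change of each member in shRNA cells (shRNA CSS minus shRNA FCS, vertical axis) and in control cells (control CSS minus control FCS, horizontal axis), coloured by family. SRSF6 and SRSF7 lie at the lower left with changes under -0.5 in both vectors, while HNRNPH1 and SRSF5 are low in control cells alone.

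Main effects of serum and shRNA were tested with limma in an additive model over the 4 arrays and 8858 genes, with 1 residual degree of freedom and variances taken from the trend on mean signal. For serum, 3 members were lower and 0 higher at an adjusted p under 0.05, against 1.42% and 1.22% of all genes. All genes include many dim ones, for which the SE was larger (0.55 for the dim LSM14B, against 0.08 for the bright SNRPB). The shares of all genes given here are therefore not those of genes of like signal, which were not computed for limma. SRSF7 was lower in CSS by a log2 coefficient of -0.63 (SE 0.11, limma adjusted p = 1.3e-06), SRSF6 by -0.64 (SE 0.14, limma adjusted p = 0.000524) and SNRPB by -0.27 (SE 0.08, limma adjusted p = 0.046). LSM3 was next, at -0.32 with a limma adjusted p of 0.051. At an unadjusted p under 0.05 there were 16 members, against 12.7% of all genes. For the shRNA, 4 members were higher and 0 lower, against 1.6% and 2.34% of all genes.

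The 4 were SNRPB at 0.30 (SE 0.08, limma adjusted p = 0.0111), HNRNPH1 at 0.31 (SE 0.09, limma adjusted p = 0.0133), HNRNPA2B1 at 0.29 (SE 0.08, limma adjusted p = 0.0179) and SRSF7 at 0.36 (SE 0.11, limma adjusted p = 0.0238). The coefficient of HNRNPH1 joins unlike values, since its change with the shRNA was -0.09 in FCS and 0.72 in CSS, and that of SRSF7 was not shared by its dimmest probe set, which changed by -0.71 in FCS. With all probe sets of each gene averaged, all 3 serum calls were lost and LSM3, SNRPG and SRSF3 were called in their place, while for the shRNA the calls were HNRNPA2B1, SNRPB and SNRPA1, the last a gene whose 3 probe sets were all lower with the shRNA, and those of HNRNPH1 and SRSF7 were lost. The serum call of SRSF6 was also lost with the values as deposited, that of SNRPB with a common median, and the shRNA call of SRSF7 at a signal of at least 100. Without the variance trend, limma called 0 members for either effect, and with the dimmest probe set of each gene it called 0 for serum. With the values as deposited or a common median it called 0 members for the shRNA. The arrays allow no test of an interaction. The departure from additivity, which is the combined change less both single changes, had a median of -0.01 for members. Over 7823 genes its median was -0.05 and its robust SD 0.55. It was 0.81 for HNRNPH1, 0.54 for SRSF5 and -0.63 for SF3A1, those of SRSF5 and SF3A1 being close to that SD in size.

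Other splicing genes were taken from a list of 104 genes, of which 85 were measured. Their median changes were 0.04 with the combined treatment, 0.06 with the shRNA in FCS and -0.07 with CSS in control cells. At 2-fold, SR-related proteins and SR kinases, 19 of them measured, had 2 genes higher and 4 lower with the combined treatment, against 7.98% and 6.9% of all genes. Among the lower ones, CLK4 and SCAF4 were at the floor of 4.32 on the shRNA CSS array. CLASRP, an SR-like protein that binds CLK kinases, was at 7.33 on the shRNA CSS array, against 5.92, 5.74 and 6.03 on the shRNA FCS, control CSS and control FCS arrays. SFSWAP was at 6.94, against 5.75, 5.58 and 5.67 in the same order, and SREK1 at 5.78, against 6.94, 6.98 and 7.30. For these genes the shRNA CSS array was the one apart from the rest. RBFOX2, a regulator of epithelial and mesenchymal exons, was at 8.29 and 7.42 on the shRNA CSS and shRNA FCS arrays, against 7.65 and 7.04 on the control CSS and control FCS arrays, and was thus higher with each treatment. The other splicing regulators, 21 of them measured, had 14 genes higher and 6 lower with CSS in control cells (median 0.07), among them RBM10 with a change of 0.72 and TIA1 with -0.71.

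Among core spliceosome genes 33 were measured, and 21 were lower and 11 higher with CSS in control cells (median -0.08). SNRNP25, of the minor spliceosome, was at 8.84 and 9.44 with the shRNA in CSS and FCS, against 8.82 and 9.49 in the control in CSS and FCS, with both CSS arrays below both FCS arrays. PRPF38B was at 4.65 on the shRNA CSS array, against 5.88, 6.01 and 6.11 on the others, and DDX46 at 7.48, against 8.19, 7.87 and 8.36. PPIH, a cyclophilin of the tri-snRNP, was at 8.42 and 8.39 on the shRNA CSS and shRNA FCS arrays, against 7.82 and 7.91 on the control CSS and control FCS arrays. SART1, of the same particle, changed by 0.77 with CSS in control cells and PRPF3 by 0.64 with the shRNA in FCS. The exon junction complex had 3 measured genes with a median of -0.14 with CSS in control cells. Genes of snRNP assembly, which load the Sm ring, had 8 of 9 measured members lower with CSS in control cells (median -0.19), of which GEMIN7 lay near the floor with a change of 0.00. In shRNA cells 6 of these 9 were lower (median -0.09).

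**Figure D5:**
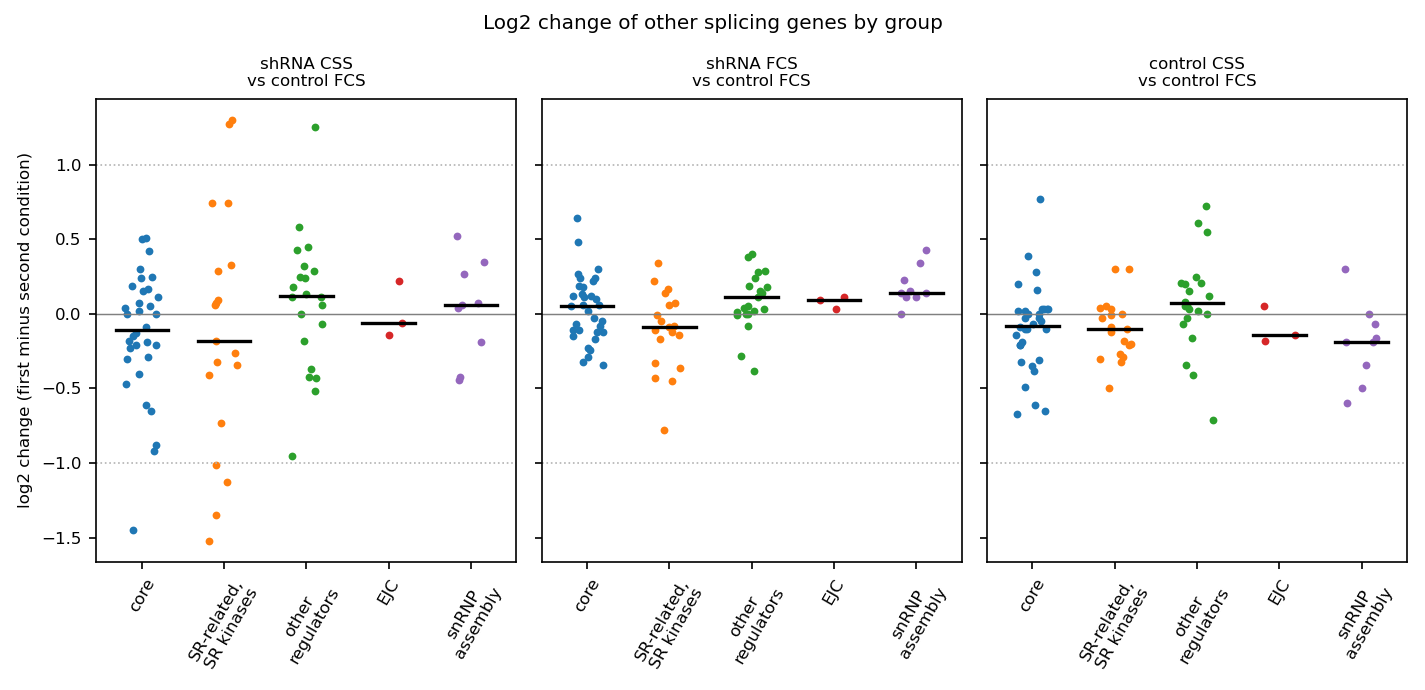
Log2 change (vertical axis, first minus second condition of each panel title) of 85 other splicing genes by group, with the group median as a black bar and 2-fold as dotted lines. SR-related proteins and SR kinases spread widest in the left panel, from -1.52 to 1.3, and snRNP assembly genes have a median of -0.19 in the right panel.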

How the data were processed

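Biotin-labelled RNA from LAPC4 cells was hybridized to 4 Affymetrix arrays, 1 per condition. The deposited values are log2 signals of 22277 probe sets without present calls. The submitters' processing notes name MAS5, and the authors' methods add selection by present calls and by intensity (20 or more), log2 values and quantile normalization. Distributions differed between the 4 deposited columns, and filter and normalization were therefore applied here. The floor of 20 is on the deposited scale.

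Of the probe sets, 62 were Affymetrix controls, and 15643 of the others reached a signal of 20 on any array and were quantile normalized and set to a floor of 20 (log2 4.32). GEO's platform annotation named 1 gene for 19070 probe sets, 19058 of which were matched to RefSeq by gene identifier, and several for 1043, which were left out. The brightest probe set by mean over the arrays stood for each of 9193 genes. A gene at the floor on both arrays had no fold. Main effects were tested with limma 3.58.1 in R 4.3.3, with Benjamini-Hochberg adjustment over 8858 genes. The prior degrees of freedom were infinite, and any interaction counts as error. On simulated data for the serum effect with 8858 genes, the test called 33% of genes changed 2-fold and 73% of those changed 4-fold, with 9 false calls among 8658 genes. The simulated noise was independent, with an SD set by mean signal alone, as the model assumes. Interactions and differences in variance between genes of like signal were not simulated, so that these false calls do not measure those in the real data. The number of arrays limits the precision. Python 3.11.15, numpy 2.4.6, pandas 2.3.3 and matplotlib 3.10.9 were used.

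Named genes were, in each family, the 3 members most increased and the 3 most decreased by both treatments together, members changed 1.5-fold by a single treatment, the brightest member and members whose probe sets disagreed, with the largest changes of the related list. All other members named, such as SRSF7, SRSF5, SRSF1 and HNRNPH3, were chosen after their values were seen, as were the subgroups by role and the promoters shown. The members and lists were chosen with earlier results of these data known. Alternatives were other normalizations, floors, filters and probe set choices, a 1.5-fold threshold and limma without the trend.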

Additional observations from a re-analysis of the deposited data

How the results depend on the processing

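Each condition had 1 array, so that no difference between 2 arrays can be told apart from the spread between arrays of 1 condition, and no array could be left out of a condition. No paired analysis was possible because each group had 1 array and no replicate numbers. The counts of members changed 2-fold were 0 in all 5 comparisons. With the values as deposited they were 5 for the combined treatment, 3 for the shRNA in CSS and 4 for CSS in shRNA cells, all lower. With a common median they were 1 for the combined treatment and 1 for the shRNA in CSS, and with the mean over probe sets 1 for the combined treatment. With the dimmest probe set they were 4 for the combined treatment, 1 for CSS in control cells, 4 for the shRNA in CSS and 3 for CSS in shRNA cells. At 1.5-fold they were 4 for the combined treatment, 1 for the shRNA in FCS, 2 for CSS in control cells, 2 for the shRNA in CSS and 3 for CSS in shRNA cells. With the values as deposited, the median change of members was -0.34 for the combined treatment (-0.16 for all genes), -0.26 for the shRNA in CSS (-0.20) and -0.37 for CSS in shRNA cells (-0.19), and the median departure from additivity was -0.29. The common median put the median of all genes at 0.11 for the combined treatment. The SRSF median for CSS in control cells was -0.18 with the dimmest probe set. For the shRNA effect limma called 0 members without the trend, 0 with the values as deposited, 0 with a common median and 2 with the dimmest probe set. For the serum effect it called 0 without the trend, 5 with a floor of 100 and 0 with the dimmest probe set. With the dimmest probe set the direction was reversed for HNRNPR (-0.09) and SRSF6 (0.18) with the combined treatment, for SRSF6 with CSS in control cells (0.38) and for SRSF7 with the shRNA in FCS (-0.71). The cause was not tested. Of 1207 comparisons with an alternative, 1155 differed from the main value by less than the local spread, or by less than a set tolerance for family medians. Sign was not required to hold among them. With the combined treatment, HNRNPDL went from 0.17 to -0.20 with the values as deposited, and LSM6 from -0.70 to -0.04 with a floor of 100. Another 48 moved further, and in 4 a main change beyond the local spread reversed. The count of members beyond the local spread with CSS in control cells was 17, and in alternatives chosen after seeing the data it was 19 with the values as deposited and 17 without the shRNA CSS array in the normalization.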
